A study of Drosophila melanogaster with 3 samples.

Results

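The snoRNA and scaRNA genes of *Drosophila melanogaster* were described by their binding of Bdp1, a subunit of the RNA polymerase III (Pol III) initiation factor TFIIIB. Members were all genes of the Ensembl BDGP6 annotation whose name begins with snoRNA: or scaRNA:, which gave 274 of the 18277 genes on the 7 chromosomes. They comprised 112 genes named for a pseudouridine (Psi), 89 named for a methylation (Me) and 73 with other names, and 17 of the 274 carried the scaRNA prefix. Chromatin immunoprecipitation and sequencing (ChIP-seq) with an antibody against GFP was done on whole embryos of 0 to 24 h, both sexes pooled. A transgenic line stably expressing CG9305 (Bdp1) with GFP at its C terminus supplied the embryos. All 3 biological replicates form 1 group, the chromatin was sonicated to 200 to 800 bp, and no second genotype or treatment was compared here. Since whole embryos were used, signal from all embryonic tissues is pooled. The values are peaks on build dm6: an optimal set of 3206 peaks that the authors derived from the 3 replicates together, and a relaxed list of 30000 peaks for each replicate in which binding sites and background stand together. Strong peaks are the 3206 of highest signal in a replicate. The lists give no read totals, so the depth behind a peak is unknown.

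snoRNAs guide the chemical modification of other RNAs. H/ACA snoRNAs direct pseudouridine formation, C/D snoRNAs direct 2'-O-methylation, mostly on ribosomal RNA, and scaRNAs act in the same way on spliceosomal snRNAs in Cajal bodies. U3 differs in taking part in the processing of the ribosomal RNA precursor. Most fly snoRNAs are cut out of introns of host genes transcribed by RNA polymerase II (Pol II), while others lie outside such genes. TFIIIB is recruited in several ways: at tRNA genes through TFIIIC bound to the internal A and B boxes, and at U6 snRNA genes through an upstream element together with a TATA box.

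The sequences below are shown because the results on promoter words turn on them. They were read from the dm6 genome and run 5′ to 3′ on the strand of the snoRNA. The first set runs from the optimal peak summit to 9 bases past the first base of 4 snoRNA genes, that first base being position 0. Capitals mark matches to B box words, GGTTCGA or GTTCNANNC, where N is any base, and where both matched they overlap and are marked as 1 run. These 4 stretches lie at chr3R:20912870-20913038 (minus strand), chrX:5524456-5524697 (minus), chr3L:1488722-1488915 (plus) and chr3L:18896447-18896670 (minus).
snoRNA:CG31191-a: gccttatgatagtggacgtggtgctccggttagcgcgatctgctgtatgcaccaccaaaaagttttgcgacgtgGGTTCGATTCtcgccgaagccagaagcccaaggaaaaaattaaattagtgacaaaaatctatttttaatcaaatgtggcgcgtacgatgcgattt
snoRNA:Psi28S-3342: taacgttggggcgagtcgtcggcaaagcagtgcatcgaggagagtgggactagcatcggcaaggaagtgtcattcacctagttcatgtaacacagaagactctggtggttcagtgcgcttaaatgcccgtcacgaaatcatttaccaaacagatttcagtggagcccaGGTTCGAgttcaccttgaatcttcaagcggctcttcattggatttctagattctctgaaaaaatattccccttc
snoRNA:Psi28S-2622: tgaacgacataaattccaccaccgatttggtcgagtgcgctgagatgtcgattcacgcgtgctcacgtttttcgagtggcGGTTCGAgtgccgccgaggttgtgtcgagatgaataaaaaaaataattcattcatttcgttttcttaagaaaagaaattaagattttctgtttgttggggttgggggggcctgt
snoRNA:Psi28S-2566: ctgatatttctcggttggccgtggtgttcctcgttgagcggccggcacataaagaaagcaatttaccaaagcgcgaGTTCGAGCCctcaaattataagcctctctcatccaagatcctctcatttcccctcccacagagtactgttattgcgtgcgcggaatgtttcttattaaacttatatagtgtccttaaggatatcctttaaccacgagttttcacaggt

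The second set runs from position -80 to position 4 of a methylation guide gene with a peak, of a U3 gene without one, and of Pol III genes with an upstream element for comparison. Capitals mark the element TTATNATTCNCAANT and the TATA word, where present. The element was derived from the letters shared by the U6 genes and matched with up to 2 mismatches over its 12 fixed letters. At U6:96Aa and 7SKa the capitals run past the end of the TATA word, which is TATAT and TATAA there. Me18S-A1806 is at chr3L:7639637-7639721 (plus), U3:9B at chrX:10348045-10348129 (plus), U6:96Aa at chr3R:24556008-24556092 (plus) and 7SKa at chr3R:7474992-7475076 (minus).
snoRNA:Me18S-A1806: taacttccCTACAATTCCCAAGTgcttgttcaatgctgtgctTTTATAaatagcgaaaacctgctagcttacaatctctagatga
snoRNA:U3:9B: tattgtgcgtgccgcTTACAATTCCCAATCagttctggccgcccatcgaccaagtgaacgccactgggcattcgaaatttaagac
snRNA:U6:96Aa: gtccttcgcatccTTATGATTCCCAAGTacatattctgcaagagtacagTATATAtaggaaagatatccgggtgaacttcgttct
snRNA:7SKa: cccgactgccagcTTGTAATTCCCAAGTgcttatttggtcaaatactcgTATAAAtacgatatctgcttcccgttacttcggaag

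Few snoRNA and scaRNA genes had a Bdp1-GFP peak within 100 bp of their 5' end, and 7 of the 13 that did lay outside host genes. At 8 of the 13 the member's own 5' end was the nearest to the summit. An optimal peak overlapped the 100 bp either side of the 5' end of 13 of 274 members (4.74%, 95% exact Clopper-Pearson interval 2.55 to 7.98%), against 12.6% of all 18277 genes. Such intervals cover counting error over genes only. The share was below that of protein-coding genes (13.7%) and tRNA genes (92.8%) and above that of miRNA genes (1.54%). Within 500 bp, 31 members (11.3%) had an optimal peak, against 15.9% of all genes.

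The replicates gave similar counts of members. A strong peak within 100 bp was found at 14 members in replicate 1, 14 in replicate 2 and 12 in replicate 3, which is 4.87% ± 0.421 (SD, n = 3) of members, against 12.2%, 10.9% and 13.5% of all genes in replicates 1, 2 and 3. The members' share was lower than that of all genes in 3 of 3 replicates, with a mean difference of -7.35 ± 1.70 percentage points (SD, n = 3; two-sided exact sign-flip permutation p = 0.25, the smallest p that 3 replicates allow). At the lower threshold of the relaxed lists, 56, 52 and 53 members had a peak in replicates 1, 2 and 3, a mean of 19.6% ± 0.760 (SD, n = 3), against 33.3%, 33.3% and 36.1% of all genes. Only 17 members had a relaxed peak in all 3 replicates, 34 had one in a pair of them, 42 in a single replicate and 181 in none.

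**Figure D1:**
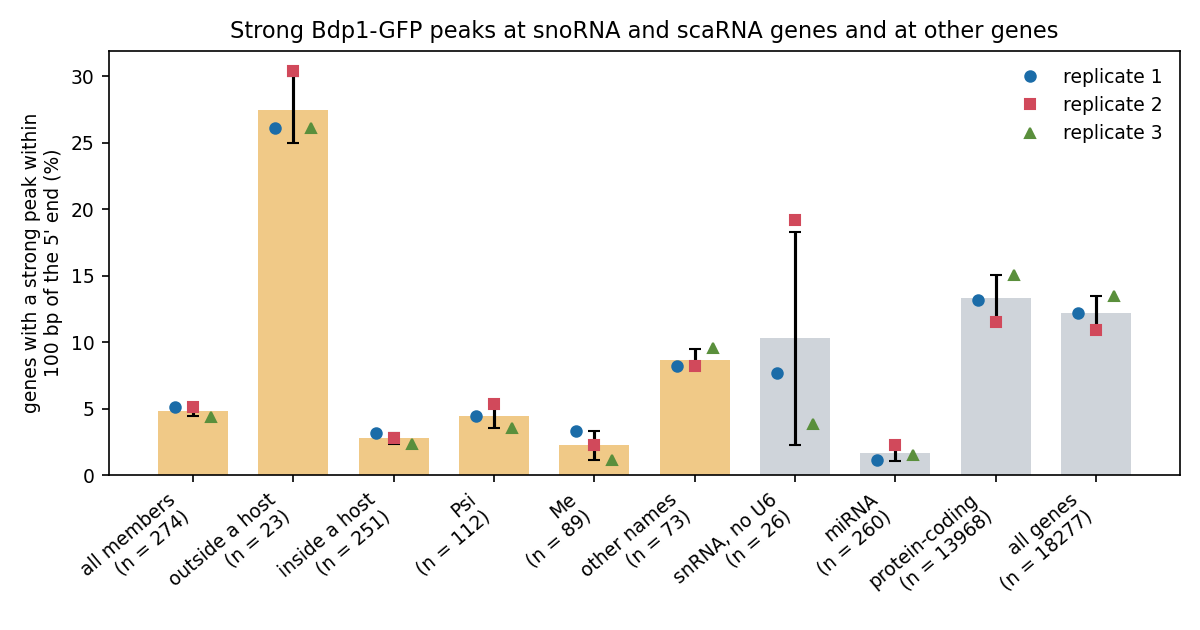
Share of genes with a strong peak within 100 bp of the 5' end, in percent, for the snoRNA and scaRNA genes (yellow bars) and other gene classes (grey bars; snRNA without U6 and U6atac). Bars are the mean of 3 replicates, error bars the SD and points the replicates. Members outside a host lie between 26.1% and 30.4%, above members inside a host (2.39 to 3.19%) in every replicate.

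Members outside a host had a peak more often than members inside one. Of the 274 members, 228 lay in an intron of a host gene on the same strand, 23 lay in a host and overlapped an exon of any of its transcripts, 11 lay opposite a gene on the other strand and 12 lay outside genes. An optimal peak at 100 bp was found at 7 of the 23 members outside a host (30.4%, exact interval 13.2 to 52.9%) and at 6 of the 251 inside one (2.39%, 0.882 to 5.13%). All 6 of these were intronic, and none of the 23 exonic members had a peak, which with the exact interval allows a share of up to 14.8%. These counts include peaks whose summit lay nearer to another gene. The member's own 5' end was nearest at 5 of the 23 members outside a host and at 3 of the 251 inside one. At the others it was a host gene's (2 members), a tRNA gene's (2) or another gene's (1). Strong peaks in replicates 1, 2 and 3 were found at 6, 7 and 6 members outside a host (27.5% ± 2.51) and at 8, 7 and 6 members inside one (2.79% ± 0.398, SD, n = 3). The share was higher outside a host in 3 of 3 replicates, by 24.7 ± 2.54 percentage points (SD, n = 3; exact sign-flip permutation p = 0.25, two-sided).

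By name, 5 of 112 Psi genes (4.46%), 2 of 89 Me genes (2.25%) and 6 of 73 other genes (8.22%) had an optimal peak at 100 bp. The Psi share of strong peaks exceeded the Me share in 3 of 3 replicates by 2.22 ± 1.03 percentage points (SD, n = 3; exact sign-flip permutation p = 0.25), but for relaxed peaks only in 2 of 3 (4.74 ± 5.05 points, exact permutation p = 0.5). The exact intervals of the optimal shares overlap (1.47 to 10.1% for Psi and 0.273 to 7.88% for Me). Outside a host 4 of 5 Psi genes had a peak, and inside a host 1 of 107 did. The corresponding Me counts were 1 of 5 outside and 1 of 84 inside, and those of other names 2 of 13 outside and 4 of 60 inside. The 4 peaks inside a host among other names all lay at members named after a gene with a letter, such as gcl-a. There are 21 such members, of which 19.0% thus had a peak, against 12.6% of all genes. At hts-a, which is among the 4, a tRNA gene's 5' end was nearest to the summit. The counts by name include further peaks nearest to another gene. Outside a host these were at Psi28S-2622 (nearest sncRNA:CR43701) and snoRNA:185 (a tRNA gene). Inside a host they were at Psi28S-2949 (nearest Uhg4) and Me28S-A774b (RpS12). The member's own 5' end was nearest at 3 Psi, 1 Me and 4 other genes.

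The peaks near members differed in what lay closest to their summit. Of the 31 members with an optimal peak within 500 bp, 10 were themselves the nearest annotated 5' end, and these are called members with their own peak below. At 13 the host gene's 5' end was nearer, at 4 a tRNA gene's, at 3 that of some other gene and at 1 that of another snoRNA gene. Signals are given as relative signals: the signal in a replicate was divided by that replicate's median over the optimal peaks, so that this median is 1. The 10 members with their own peak had a median relative signal of 9.37, with means from 0.670 to 40.8. Peaks nearest to the host gene had a median of 1.51 over the 11 members with a value in all replicates, with means from 0.806 to 2.93. Peaks nearest to a tRNA gene had a median of 14.7, with means from 9.96 to 25.5. These 3 groups were formed from the peaks themselves, so the values are a description and were not tested.

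**Figure D2:**
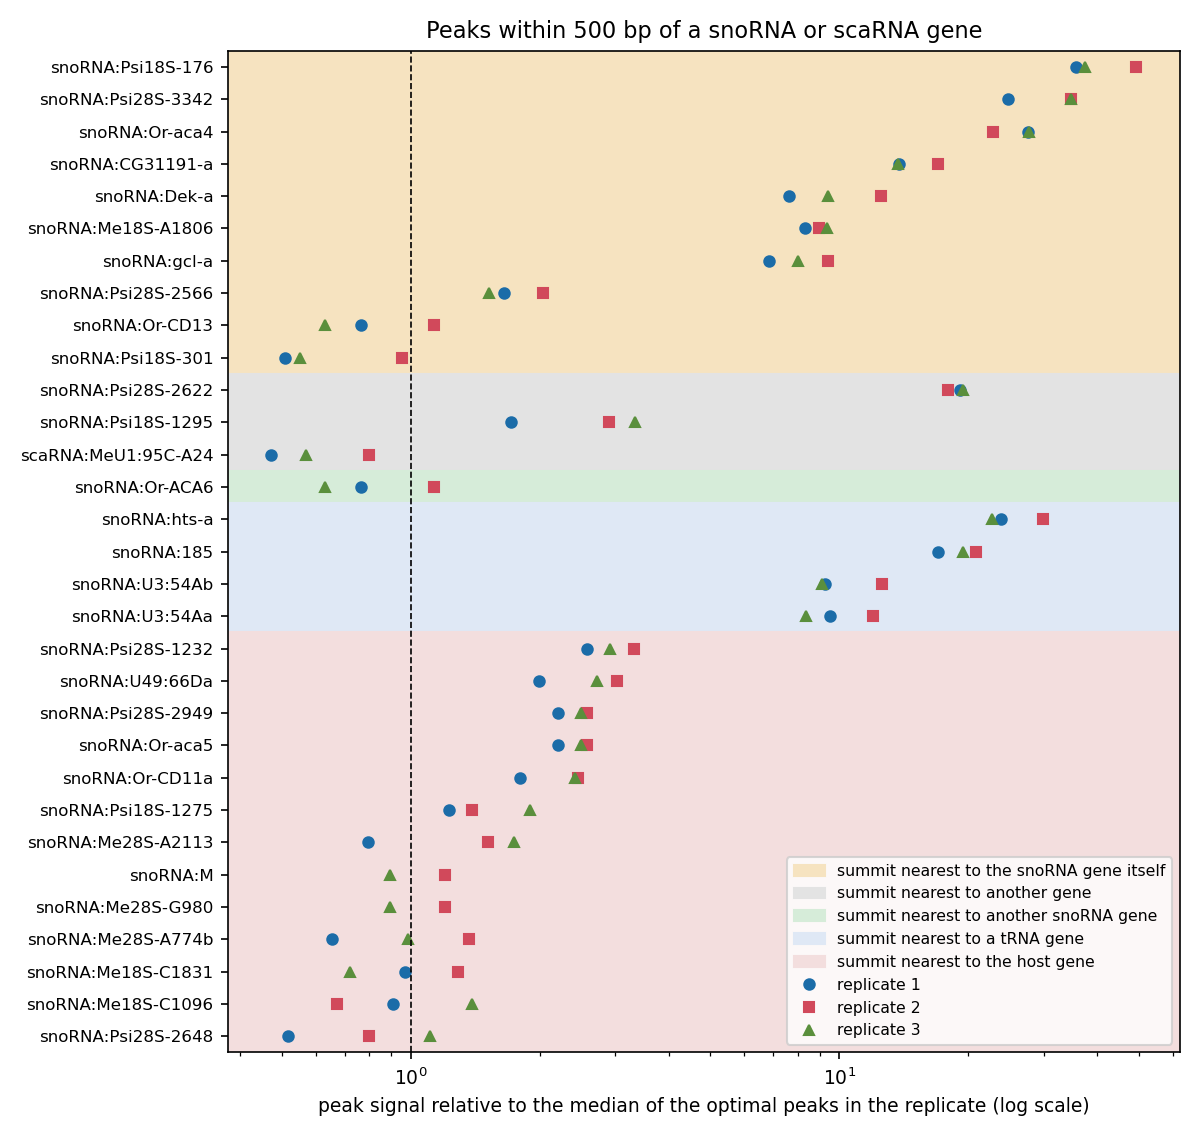
Signal in each replicate of the optimal peak within 500 bp of 31 snoRNA and scaRNA genes, divided by that replicate's median over the optimal peaks (dashed line at 1; log scale). Background colours give the nearest annotated 5' end to the summit. Peaks nearest to the host gene have means of at most 2.93, and 7 of the 10 members with their own peak have means from 8.09 to 40.8.

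The highest signals among members with their own peak were at Psi genes outside genes. Psi18S-176, a pseudouridine guide for 18S rRNA by its name (2R, 23839911 to 23840064, minus strand), had relative signals of 35.7, 49.4 and 37.4 in replicates 1, 2 and 3, a mean of 40.8 ± 7.47 (SD, n = 3). Its peak ranked 13 of 3206 in the optimal set. Psi28S-3342 (X, 5524302 to 5524465, minus strand), named for 28S rRNA, had 24.8, 34.7 and 34.8, a mean of 31.4 ± 5.74 (SD, n = 3), and ranked 18. Replicate 2 was the highest at Psi18S-176, while replicates 2 and 3 were equally high at Psi28S-3342. A further Psi gene outside genes, Psi18S-301 (3R, 20574906 to 20575043, plus strand), was far weaker, at 0.508, 0.952 and 0.550, a mean of 0.670 ± 0.245 (SD, n = 3) with rank 2337. It lay below 1 in all replicates, and its strong peak was present in replicate 2 alone.

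Or-aca4, an H/ACA snoRNA gene by its name on the opposite strand to another gene (2R, 17616756 to 17616917, plus strand), had relative signals of 27.6, 22.9 and 27.7 (mean 26.1 ± 2.73, SD, n = 3) and rank 32. Me18S-A1806, a methylation guide gene outside genes (3L, 7639717 to 7639794, plus strand), had 8.31, 8.97 and 9.35 (mean 8.88 ± 0.528, SD, n = 3) and rank 112. It was the only Me gene with its own peak and had the narrowest spread between replicates, relative to its mean, of the 10.

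Of the members with their own peak, 4 were intronic, and 3 of these carry the name of their host. CG31191-a (3R, 20912733 to 20912879, minus strand) lay 32651 bp from the 5' end of its host and had relative signals of 13.8, 17.0 and 13.7 (mean 14.9 ± 1.90, SD, n = 3). Dek-a (2R, 16857413 to 16857578, plus strand), 771 bp from the 5' end of Dek, had 7.64, 12.5 and 9.43 (mean 9.86 ± 2.47, SD, n = 3), and gcl-a (2R, 8724905 to 8725065, plus strand), 647 bp from the 5' end of gcl, had 6.85, 9.42 and 8.01 (mean 8.09 ± 1.29, SD, n = 3). Replicate 2 gave the highest value at all 3. Their peaks ranked 62, 97 and 125 in the optimal set. Psi28S-2566 (3L, 18896189 to 18896456, minus strand), in an intron of CG3902, had 1.65, 2.03 and 1.52 (mean 1.73 ± 0.263, SD, n = 3), and its peak reached the 500 bp window only.

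The summit of Or-CD13, by its name a C/D snoRNA gene (2R, 10082253 to 10082322, minus strand), lay 438 bp downstream of its 5' end, beyond the gene itself. Its relative signals were 0.765, 1.13 and 0.629 (mean 0.840 ± 0.257, SD, n = 3), and the same peak was the one counted at the neighbouring Or-ACA6. Neither gene had an optimal peak within 100 bp.

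At 5 further members with a high peak nearby, the 5' end of another short RNA gene lay nearer to the summit. Psi28S-2622 (3L, 1488906 to 1489045, plus strand) had relative signals of 19.1, 17.9 and 19.4 (mean 18.8 ± 0.808, SD, n = 3), but the small non-coding RNA gene sncRNA:CR43701 began 17 bp from the summit. The peak at hts-a (23.8, 29.9 and 22.7, mean 25.5 ± 3.90) had its summit 19 bp from tRNA:Ser-CGA-1-4, and that at snoRNA:185 (17.0, 20.9 and 19.4, mean 19.1 ± 2.00, SD, n = 3 for both) had its summit 55 bp from tRNA:Glu-TTC-1-5. The U3 genes U3:54Aa and U3:54Ab each had a tRNA:Leu-AAG gene nearby, under a peak with its summit at -364 bp (U3:54Aa) and -361 bp (U3:54Ab) from the U3 5' end and means of 9.96 ± 1.89 and 10.3 ± 2.01 (SD, n = 3). Neither U3 gene had an optimal peak within 100 bp. All 32-base words of their windows occurred more than once in the genome, so reads there may not be placed uniquely.

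The third U3 gene, U3:9B (X, 10348125 to 10348337, plus strand), had relaxed peaks in all replicates at ranks 13914, 10921 and 24913 of 30000, with relative signals of 0.296, 0.351 and 0.231 (mean 0.292 ± 0.0600, SD, n = 3). No optimal peak lay within 500 bp of it. None of the 17 scaRNA genes had an optimal peak within 100 bp, which with the exact interval allows a share of up to 19.5%, and no scaRNA gene had a strong peak there in any replicate. At 500 bp the only one was MeU1:95C-A24, whose peak (0.472, 0.797 and 0.570, mean 0.613 ± 0.167, SD, n = 3) lay nearer to the U1 snRNA gene snRNA:U1:21D.

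Only 4 of the 243 members without an optimal peak within 500 bp had relaxed peaks in all replicates. Besides U3:9B these were Me18S-A1576 in Uhg2 (mean relative signal 0.535 ± 0.193), Psi18S-920 in RpL10Ab (0.409 ± 0.124) and Me18S-G1358c in RpL15 (0.368 ± 0.0394, SD, n = 3 each). The summits were nearest to the host in all replicates at Me18S-A1576 and Psi18S-920, and in replicates 2 and 3 at Me18S-G1358c. All 4 had relative signals below 1 in every replicate.

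Host genes often had a peak at their own 5' end that did not reach the snoRNAs inside them. Of 99 host genes, 37 (37.4%) had an optimal peak within 100 bp of a 5' end, against 12.6% of all genes. Among the 88 protein-coding hosts 36 had one (40.9%), against 13.7% of protein-coding genes. Together those 37 hosts held 110 members, of which 3 had a peak within 100 bp of the snoRNA. At 2 of the 3 the host's 5' end was nearest to the summit. The other was hts-a, 2994 bp from the 5' end of hts, where a tRNA gene's 5' end was nearest. Members inside a host lay a median of 1465 bp from the host's 5' end, and 35 of 251 lay within 500 bp. The host's peak was the nearest one at Psi28S-2949, a gene 99 bp from the start of Uhg4 (2.21, 2.58 and 2.50, mean 2.43 ± 0.199, SD, n = 3), and at Me28S-A774b in RpS12 (0.654, 1.37 and 0.984, mean 1.00 ± 0.356, SD, n = 3). Replicate 1 was the lowest at both. In the 500 bp window the host's 5' end was also nearest at Or-aca5 in Uhg4, at M and Me28S-G980 in sta, and at 1 member each of RpL27A, RpL36A, RpL30, RpL28, RpL14, RpS29, RpL3 and RpL17, with Psi28S-1232 in RpL17 the highest (2.57, 3.31 and 2.91, mean 2.93 ± 0.372, SD, n = 3). Psi18S-1295 in RpS20 had a summit nearer to CG17271, 165 bp away (mean 2.65 ± 0.846, SD, n = 3).

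Host genes for ribosomal proteins, here those named RpL or RpS with a number, had a peak in 19 of 28 cases (67.9%, exact interval 47.6 to 84.1%). Ribosomal protein genes that hold no snoRNA had one in 33 of 60 cases (55.0%, 41.6 to 67.9%), so the intervals overlap. Other protein-coding hosts had one in 17 of 60 cases (28.3%, 17.5 to 41.4%) and other protein-coding genes without a member in 13.3% (12.8 to 13.9%); these shares were not tested. Of the 15 hosts with at least 5 members, 7 had a peak (46.7%), against 37.4% of all hosts and 12.6% of all genes. The highest mean relative signals among the 15 were those of Uhg4 (2.43 ± 0.199) and RpL28 (2.22 ± 0.365, SD, n = 3). Of the 7 Uhg genes, non-coding hosts whose introns hold snoRNAs, Uhg4 alone had a peak (14.3%). That share is near the 12.6% of all genes, and neither share was tested. Arpc2, a subunit of the actin-nucleating Arp2/3 complex and the host with the most members (17), had none, nor did Uhg1 with 16.

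The genes for proteins of snoRNA particles and their assembly were looked up as a list. Of these 14 genes, 5 had an optimal peak within 100 bp, against 13.7% of protein-coding genes. Fib, the methyltransferase fibrillarin of C/D particles, had relative signals of 1.23, 2.26 and 2.98 (mean 2.16 ± 0.878, SD, n = 3), replicate 1 being the lowest. Nopp140, a nucleolar and Cajal body protein, averaged 0.890 ± 0.418, and the assembly factors pont and rept averaged 0.804 ± 0.352 and 0.889 ± 0.278 (SD, n = 3). NHP2 of the H/ACA particle had 1.51 and 0.842 in replicates 1 and 3 and no value in replicate 2. Nop60B, the pseudouridine synthase of H/ACA particles, holds 7 members, 6 of them overlapping its annotated exons, and had no peak, as did Nop10, Gar1, Nop56, nop5, hoip, coil, Nufip and WDR79.

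Summits at members with their own peak lay mostly upstream of the annotated snoRNA, farther from the 5' end than at tRNA genes. In replicates 1, 2 and 3 the median summit of the strong peaks stood at -153, -138 and -160 bp from the snoRNA's first base (mean -150.3 ± 11.2 bp, SD, n = 3) over 9, 11 and 9 genes. The summit lay upstream at 8, 10 and 8 of these and downstream at 1 in each replicate, Or-CD13 in replicates 1 and 2 and Or-aca2 in replicate 3. Or-aca2 and, in replicate 2, Psi28S-1180 had a strong peak of their own in that replicate alone and no optimal peak within 500 bp. At lone tRNA genes, those more than 1000 bp from any further Pol III gene, it stood at -30.0, -29.0 and -27.5 bp (mean -28.8 ± 1.26 bp, SD, n = 3). Only gcl-a (-21, -19 and -7 bp) and Me18S-A1806 (-16, -17 and -12 bp) had summits within 60 bp upstream in all replicates. The summits of Psi28S-3342 (-235, -227 and -232 bp) lay farthest upstream, next to those of Psi28S-2566 (-228, -211 and -229 bp).

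**Figure D3:**
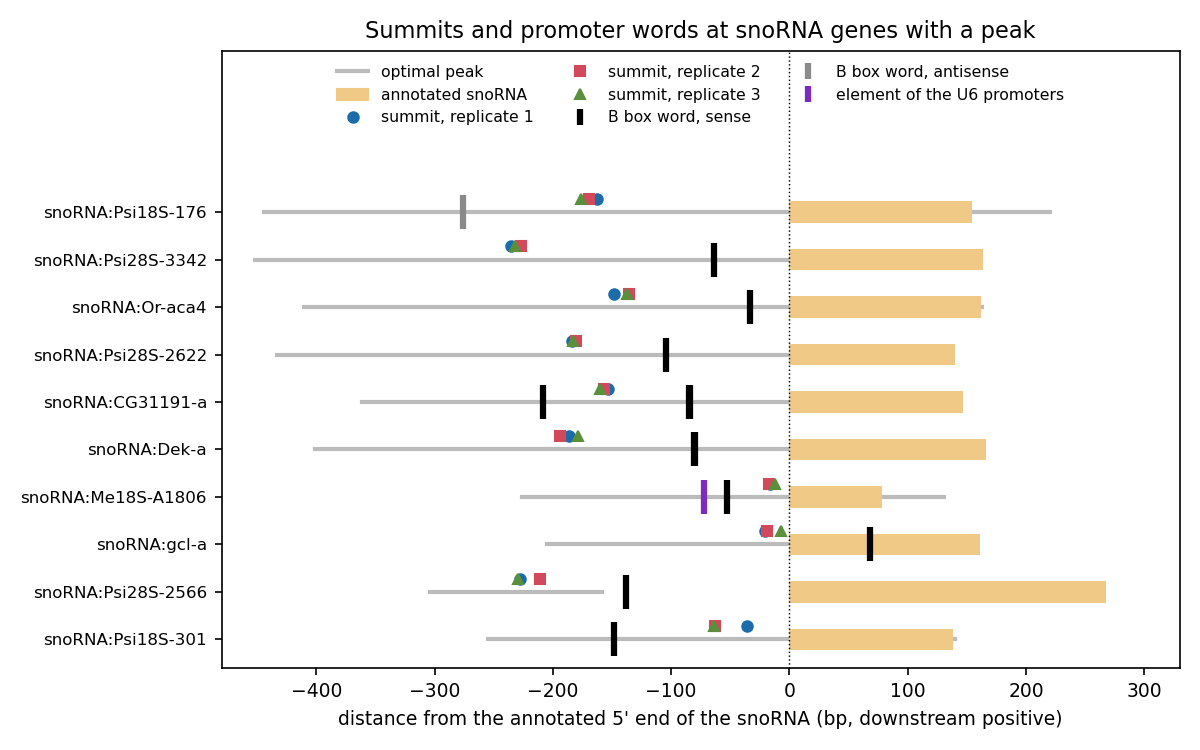
Optimal peak, replicate summits, annotated snoRNA and promoter words at 9 of the 10 snoRNA genes with their own peak and at Psi28S-2622, by distance from the snoRNA's first base in bp. Ticks mark the start of words found within 200 bp of the summit. Or-CD13, whose summit lies 438 bp downstream, is not drawn. Summits lie upstream of all 10 genes, and a sense B box word lies between summit and gene at 6 of them.

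A B box word lay close to the summit at most of these genes and of the tRNA genes. GTTCNANNC and GGTTCGA were chosen after the sequences had been seen, so the shares are a description. Within 150 bp of the summit on either strand, GTTCNANNC occurred at 8 of the 10 own peaks and at 208 of 231 peaks at tRNA genes. It also occurred at 297 of 2960 other optimal peaks and at 16.1% of all optimal peaks. These counts take matches on both strands and on both sides of the summit. Only 5 of the 8 own peaks had a match downstream of the summit on the snoRNA's strand. The narrower GTTCGANNC, a subset of those matches, occurred at 4 of 10, at 53.7% of tRNA peaks and at 3.07% of other peaks. In the window from 250 bp before to 100 bp after the 5' end, GTTCGANNC was present at 4 of 10 members with their own peak, at 3 of the 243 with no optimal peak within 500 bp (1.23%) and at 3.97% of all genes. GTTCNANNC was present in that window at 8 of 10, at 22 of 243 (9.05%) and at 12.9%, and GGTTCGA, which can overlap both, at 3 of 10, at 5 of 243 (2.06%) and at 3.57%, in the same order of genes.

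At 5 of the 10 genes GTTCNANNC lay within 150 bp downstream of the summit on the snoRNA's strand. It began at 75 bp at CG31191-a, 76 bp at Psi28S-2566, 87 bp at gcl-a and 108 bp at Dek-a and Or-aca4, a median of 87.0 bp. The same search at lone tRNA genes found the word at 81 of 94, with a median of 83.0 bp and quartiles of 74.0 and 99.0 bp. Both searches took only words within 150 bp downstream, which by itself confines the medians. Their closeness therefore shows little, and it was not tested. The word began before the snoRNA's first base at 4 of the 5 and 68 bp inside the annotated gene at gcl-a. GGTTCGA stood 80 bp from the summit at Psi28S-2622 and 168 bp from it at Psi28S-3342. At Psi18S-176 the only match was on the opposite strand, at -113 bp from the summit. At Me18S-A1806 and Psi18S-301 the only GTTCNANNC match was on the snoRNA's strand but upstream of the summit, at -36 and -91 bp. CG31191-a had a further match upstream, at -49 bp.

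Me18S-A1806 had another arrangement, seen in the second set of sequences. The search took an element starting from -90 to -50 bp on the gene's strand, with a TATA word starting from -40 to -20 bp. The TATA words accepted were TATAA and TATAT, and also TTTATA. At Me18S-A1806 the element began at -72 bp with 2 mismatches and the TATA word at -38 bp, against -67 and -31 bp at snRNA:U6:96Aa. These are starts of unlike words, TTTATA at Me18S-A1806 and TATAT at snRNA:U6:96Aa. TATAA itself began at -36 bp at Me18S-A1806. The element, with or without a TATA word, was found in that range at 5 of 274 members (1.82%), against 150 of all 18277 genes (0.821%). Of the members, Me18S-A1806 was the only one with both (0.365%), against 24 of all 18277 genes (0.131%). Its 2 mismatches are the most that were allowed. The search for the element with a TATA word was added after the sequences had been seen. These shares are therefore a description and were not tested. The 4 members with the element and no TATA word in that range were the 3 U3 genes, at -65 bp in each, and Me18S-C1968. None of these had an optimal peak within 100 bp. At U3:54Aa and U3:54Ab no 32-base word was unique, so a missing peak there cannot be read as missing binding. TATAA alone occurred near 5 of 10 members with their own peak, 61.3% of those with no peak and 67.2% of all genes. In the same window, from 250 bp before to 100 bp after the 5' end on both strands, the element was found at 2 of 10 members with their own peak, at 24 of all 274 members (8.76%) and at 9.46% of all genes.

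A run of 5 thymines, the usual Pol III termination signal, lay from 20 bp before to 40 bp after the annotated 3' end, on the snoRNA's strand, at 9 of the 10 members with their own peak. The exception was CG31191-a. Such a run was present at 40 of 243 members without an optimal peak within 500 bp (16.5%) and at 267 of 290 tRNA genes (92.1%). No share over all genes was taken for this run. Of the 10 members with their own peak 6 lay outside a host, whereas most of the 243 lay inside one. This search was also chosen after the data had been seen, and no test was made.

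**Figure D4:**
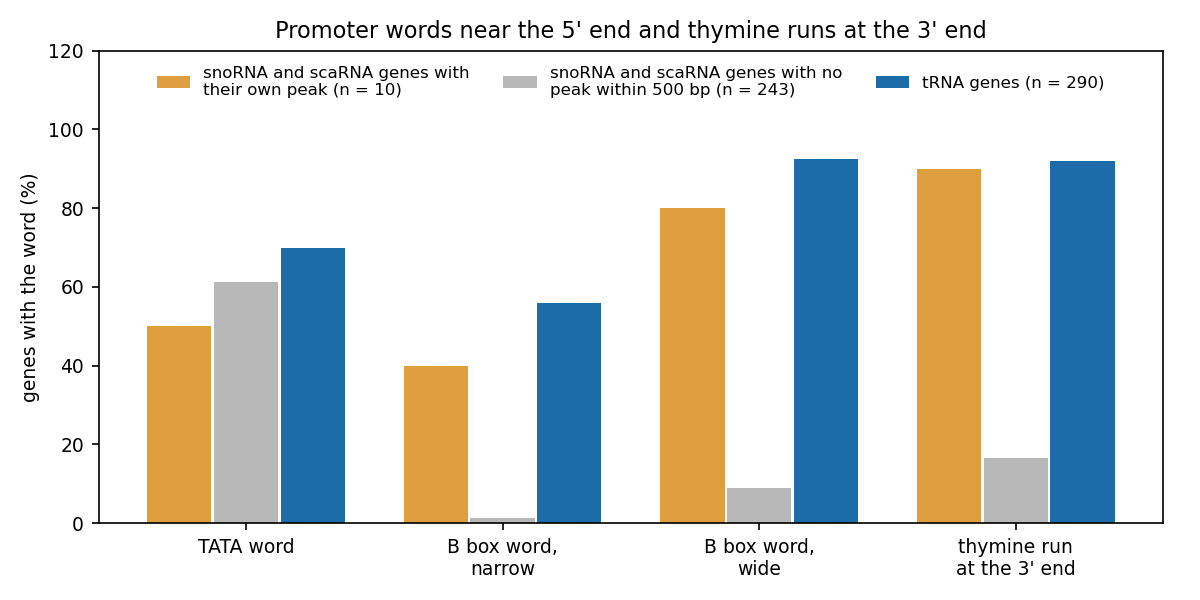
Share of genes, in percent, with TATAA, the narrow B box word (GTTCGANNC) and the wide one (GTTCNANNC) from 250 bp before to 100 bp after the 5' end on either strand, and with a run of 5 thymines at the 3' end. The T run is found at 9 of the 10 members with their own peak, at 16.5% of members with no optimal peak within 500 bp and at 92.1% of tRNA genes.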

How the data were processed

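Peak lists from 3 ChIP-seq replicates of Bdp1-GFP embryos were used on build dm6. The authors deposited, per the text filed with the lists, a relaxed list for each replicate and for the pooled reads, made against a control alignment, and an optimal list derived from the replicate and pooled lists. The peak signal is the value the authors deposited in each list. Its scale between lists, the aligner, the peak caller and the thresholds were not given in the sources used here. Signals were therefore compared within a list or after division by the replicate's median. The optimal peaks were exactly the strongest 3206 of the pooled list. The dm3 lists were not used, and 0 columns were left without a sample.

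Genes came from Ensembl release 115 and sequence from the matching NCBI Release 6 genome, with coordinates 1-based. A gene had a peak when at least 1 bp of a peak fell within 100 bp (or 500 bp) of any annotated transcript's 5' end. A host is a longer protein-coding or long non-coding gene on the same strand that contains the member, and a member's own peak is one whose summit has that member as the nearest 5' end, within 500 bp. Replicate values are the highest relaxed signal containing the optimal summit, and no mean is given where a replicate has none. Differences over replicates were tested with exact two-sided sign-flip permutations, for which 3 replicates allow no p below 0.25. Intervals are 95% exact Clopper-Pearson. The overlap counting was checked on simulated peaks. Python 3.11.15, numpy 2.4.6 and scipy 1.17.1 were used.

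Named were all members with an optimal peak within 500 bp, those others with relaxed peaks in all replicates, and their hosts and neighbours. Also named were hosts with at least 5 members and 14 genes for proteins of snoRNA particles and their assembly. Members and lists were chosen with earlier results of these data known. The words GTTCNANNC and GGTTCGA, the element with TATA and the T runs were added after the sequences had been seen. Alternatives varied the window, summit distance, number of peaks, replicate set, host strand and scaling.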

Additional observations from a re-analysis of the deposited data

How the results depend on the processing

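The 6 counts of members with an optimal peak within 100 bp depended mainly on the window. Windows of 500 bp gave 31 of all members, 10 Psi, 7 Me and 14 other genes, with 12 outside and 19 inside a host, and mean shares of 11.3% with a strong and 40.5% with a relaxed peak. Requiring the summit itself to lie within 100 bp gave 4 of all members, 1 Psi, 1 Me and 2 other genes, with 2 outside and 2 inside a host, and mean shares of 1.22% strong and 6.20% relaxed, while a limit of 250 bp left 1 Me gene. The 6412 strongest pooled peaks gave 8 Psi genes and 11 members inside a host. Using 1603 or 6412 strongest peaks per replicate gave mean strong shares of 4.26% and 7.18%. Without 1 replicate, optimal peaks that overlapped strong peaks of both others gave 12 members with a peak, whichever replicate was left out. These were 6 outside and 6 inside a host, and by name 4 Psi, 2 Me and 6 other genes. The optimal peaks still came from all 3 replicates, so this setting could only remove peaks. It is no independent check of the replicate left out. Over the replicates kept, the mean shares lay between 4.74% and 5.11% (strong) and 19.2% and 19.9% (relaxed). The median summit lay between -156 and -146 bp. Leaving 1 of 3 values out of a mean cannot move it by an SD, so these means say nothing about stability. Under each of these settings of the optimal peaks, and with the 1603 strongest optimal peaks, peaks strong in all 3 replicates, the outermost 5' end, or hosts on either strand (5 of 12 outside, 8 of 262 inside), the share outside a host was above that inside. Under each setting that changed the optimal peaks or windows, the members' share was below that of all genes (4.38% against 6.94% with those 1603). Scaling of signals by the strongest peaks was tried on the 29 members with a value in all replicates. It changed no member's mean by as much as its SD. The lowest and highest ratios to the main mean were both 1.00. This scaling thus hardly differed from the main one, and it says nothing about stability. No paired analysis was possible between groups of samples, because the samples form 1 group; differences between sets of genes were taken within each replicate. The depth behind the peaks is unknown, and 6 members had under 50% unique 32-base words around the 5' end.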
